A study of Mus musculus with 16 samples.

Results

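The genotype by UVB interaction is the difference between the UVB effect in skin that lacks TNF receptors and the UVB effect in wild-type skin, taken gene by gene. It was computed as the change from control to UVB in knockout skin minus the same change in wild-type skin, on the log2 scale. All 16 libraries of the series entered it, 4 in each of 4 groups. Whole dorsal skin came from male animals 8 weeks old, and every sample carries the label telogen, the stage at which hair follicles rest. The WT control group was wild-type skin without UVB and the WT UVB group was wild-type skin given the treatment labelled 3xUVB. The KO control and KO UVB groups were the same pair in mice with a double knockout of Tnfrsf1a and Tnfrsf1b, which encode TNF receptors 1 and 2. The labels do not give the UVB dose, its timing or the parts of the receptor genes that the alleles lack. By its title the series asks about melanocyte stem cells under UVB when TNF signalling is missing. The labels do not say whether libraries of a group came from separate mice, so every p-value measures the spread between these samples, which may be technical in part.

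TNF is an inflammatory cytokine that keratinocytes, mast cells and macrophages of the skin release after ultraviolet light. It binds TNF receptor 1, which most cells carry, and TNF receptor 2, which is more restricted to immune and endothelial cells. Through TRADD, TRAF and RIPK1 proteins the receptors switch on NF-kB and AP-1 transcription factors or, in other settings, death of the cell. UVB light itself damages DNA and activates p53, after which keratinocytes arrest, divide again and thicken the epidermis while leukocytes enter the dermis.

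Several libraries stood apart within their groups. KO UVB library 4 lacked most of the keratinocyte stress response of its group. The list of 34 tested stress and wound keratinocyte genes summed to 2347 CPM (reads scaled to library size) there, against 7504 to 8619 in the other 3 KO UVB libraries. KO UVB library 3 held the most neutrophil transcripts, with 507 summed CPM over 14 genes against 107 to 144 in the rest of its group. KO UVB library 4 held the most transcripts of Langerhans, dendritic and MHC class II genes in its group, 5760 CPM against 1328 to 3918. The control groups differed in transcripts of growing hair, although all were labelled telogen. The 42 tested keratins and other genes of the anagen (growing) hair shaft and root sheath summed to 1461 to 3732 CPM in WT control, 151 to 407 in KO control, 52.8 to 250.1 in WT UVB and 45.9 to 68.5 in KO UVB libraries. Depth was 15644375 to 23200649 reads in genes per library. Keratins of basal and upper epidermis and collagens of the dermis were abundant in every library and fit the labelled tissue. Krt5 ranged from 1577 to 6201 CPM and Col1a1 from 8240.7 to 20318 CPM.

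Few genes passed the test of the interaction. Of 17531 genes tested, edgeR's quasi-likelihood test called 4 (0.0228%) with p-values adjusted by the Benjamini-Hochberg method and a threshold of 0.05. In 3 of them, Hba-a2, Pinlyp and Angptl8, the knockout UVB effect lay above that of the wild type (0.0171% of genes), and in Tnik it lay below (0.0057%). The next smallest adjusted p was 0.0576. An adjusted p under 0.1 was reached by 46 genes (0.262%), 26 positive and 20 negative, and an unadjusted p under 0.05 by 2238 (12.8%), 1138 positive and 1100 negative. The count depended on the tool: DESeq2 called 212 genes (107 positive, 105 negative, 1.21%) and limma voom with sample weights 438 (214 positive or 1.22%, 224 negative or 1.28%, 2.5% in all), with 159 genes shared by these tools and all 4 edgeR calls in both. One library also moved it. Without KO UVB library 4 edgeR called 110 genes and without KO control library 1 it called 30, while 7 were called without KO UVB library 1, 7 without WT control library 3 and 2 without KO control library 4. Leaving out KO UVB libraries 3 and 4 together gave 67 calls. Of the 95 genes named in the text, 26 that were not called with all libraries were called without KO UVB library 4: Abcc9, Ache, Banp, Fbl, Fkbp5, Gjb2, Gpx2, Hsp90aa1, Hsph1, Itpk1, Klf11, Krt6a, Lcn2, Mef2c, Neb, Padi1, Pdia4, Ranbp1, Rnase1, Slpi, Sox6, Steap1, Synm, Tead1, Tnc and Ttn. Without KO control library 1, 11 were: Abcc9, Ache, Fkbp5, Itpk1, Klf11, Pdia4, Rnase1, Sox6, Tead1, Tgfb2 and Wfdc17. Other libraries left out singly added at most 1 of the named genes, which were Banp (KO UVB library 1), Vsig4 (WT UVB library 3), Hsph1 (KO control library 3), Fkbp5 (WT control library 3) and Sox6 (KO control library 2 or WT control library 2). The median interaction over all genes was 0.02 on the log2 scale, and 52.6% of genes had a positive value. The standard error of the interaction had a median of 0.216 over genes, with the 10th and 90th percentiles at 0.114 and 0.586.

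The UVB effects themselves were numerous in each genotype. UVB changed 3290 genes in WT skin (18.8% of those tested, 1782 or 10.2% up and 1508 or 8.6% down) and 5666 in KO skin (32.3%, 3011 or 17.2% up and 2655 or 15.1% down). These comparisons share no library. Of the genes that rose in WT skin, 1380 also rose in KO skin, 77.4% of the WT and 45.8% of the KO rises, and 3 fell. Of those that fell in WT skin, 855 also fell in KO skin, 56.7% of the WT and 32.2% of the KO falls, and 6 rose. Across the 17531 genes, which are not independent replicates, the effects in the genotypes had a Pearson correlation of 0.745 and a Spearman correlation of 0.596. KO and WT skin differed in 297 genes without UVB (1.69%, 73 higher and 224 lower in KO) and in 150 after UVB (0.856%, 87 or 0.496% higher and 63 or 0.359% lower). Whether 1 genotype responded to UVB in more genes than the other was not tested, since a count of calls is no test of a difference. With the groups of each genotype fitted alone, the order of the counts was reversed, with 4363 calls in WT and 3506 in KO skin.

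**Figure D1:**
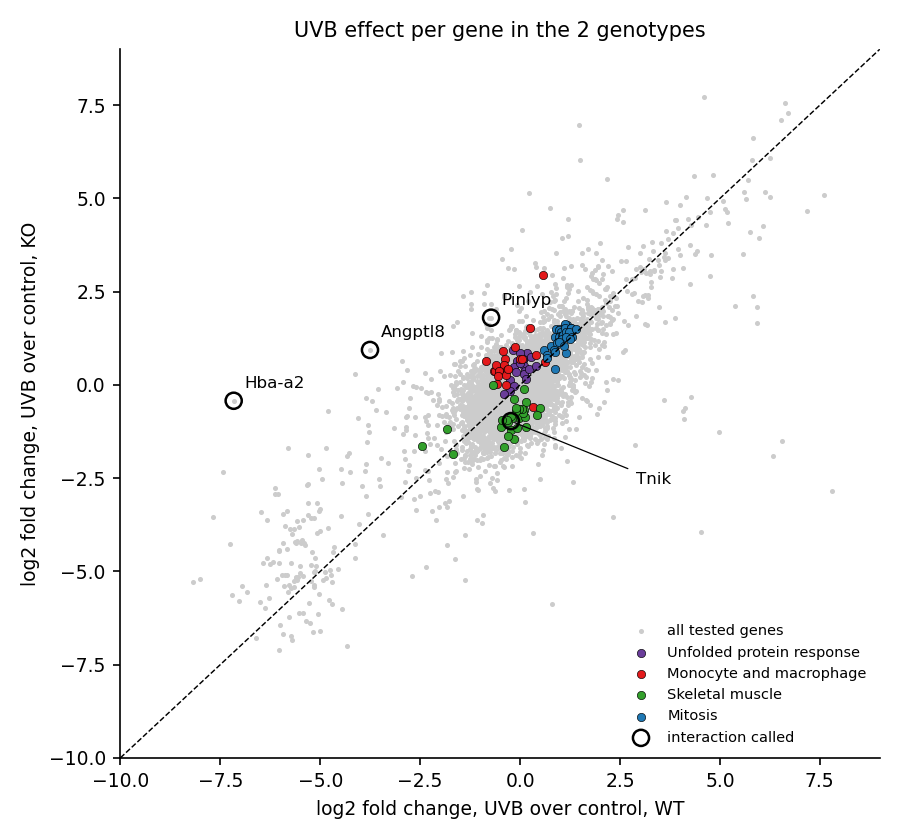
Each point is a gene, with its log2 fold change from control to UVB in WT skin on the horizontal axis and in KO skin on the vertical axis. The dashed line marks equal effects; the 4 ringed genes have a called interaction, and coloured points are members of 4 gene lists. Mitosis genes lie near the line, unfolded protein response and macrophage genes mostly above it, and skeletal muscle genes mostly below it.

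Pinlyp, which encodes a small secreted protein annotated as a phospholipase A2 inhibitor of the Ly6/PLAUR family, moved in opposite directions. It was at 17.3, 20.02, 18.97 and 15.1 CPM in WT control and at 7.52, 11.2, 13.4 and 11.1 CPM in WT UVB libraries. In KO skin it was at 3.94, 3.60, 3.62 and 4.44 CPM without UVB and at 19.5, 14.5, 12.2 and 8.20 CPM after it. Every KO control library lay below every library of the other 3 groups, and the KO UVB range overlapped that of both WT groups. UVB lowered Pinlyp in WT skin (log2 fold change -0.73 ± 0.21, adjusted p = 0.0276) and raised it in KO skin (1.80 ± 0.23, adjusted p = 7.17e-05), an interaction of 2.53 ± 0.31, adjusted p = 0.00458. The genotypes differed without UVB (-2.19 ± 0.23, adjusted p = 9.59e-05), and after UVB the difference was 0.33 ± 0.21, adjusted p = 0.458. The interaction of Pinlyp was called in all 16 fits that left out 1 library. It was not called with the mean standardised log2 CPM of growing-hair genes (the hair score) as a covariate (adjusted p = 0.185), nor were Angptl8 (0.348), Tnik and Hba-a2 (both 0.0958).

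Angptl8, which encodes a secreted regulator of lipoprotein lipase, was high in the WT control libraries alone. It was named after its values were seen, since its mean of 38.6 reads per library was under the minimum of 50 for naming. WT control libraries held 89, 178, 128 and 80 reads of Angptl8, or 3.98, 11.03, 5.59 and 3.58 CPM, and WT UVB libraries 16, 5, 10 and 5 reads, or 0.738, 0.237, 0.485 and 0.278 CPM. KO control libraries held 4, 20, 6 and 7 reads (0.194, 0.848, 0.319 and 0.388 CPM) and KO UVB libraries 16, 17, 18 and 19 reads (0.796, 0.970, 0.831 and 0.865 CPM). The WT control libraries stood above all others, and the 3 remaining groups were within 1 CPM of zero. Angptl8 fell with UVB in WT skin (-3.76 ± 0.45, adjusted p = 5.61e-05), gave 0.94 ± 0.48, adjusted p = 0.15 in KO skin, and had an interaction of 4.69 ± 0.66, adjusted p = 0.0113. Fat cells are a known source of Angptl8, and 22 adipocyte genes summed to 10215 to 19488 CPM in WT control, 10075 to 12221 in WT UVB, 12419.5 to 13797 in KO control and 8078 to 15234 in KO UVB libraries, whose part in the result was not tested. Without KO control library 4 the adjusted p of the interaction was 0.0630.

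Tnik, which encodes a kinase that binds TRAF2 and acts on Wnt target transcription with TCF4, was the called gene with the smallest interaction and the least scatter. It was at 37.2, 35.03, 34.2 and 34.3 CPM in WT control and 27.9, 33.2, 29.7 and 29.2 CPM in WT UVB libraries. KO libraries held 39.7, 44.1, 44.1 and 45.9 CPM without UVB and 23.4, 23.2, 20.7 and 21.4 CPM after it. The 4 groups did not overlap: KO control was highest, followed by WT control, WT UVB and KO UVB. Tnik fell with UVB in WT skin (-0.23 ± 0.07, adjusted p = 0.0394) and fell further in KO skin (-0.97 ± 0.07, adjusted p = 3.05e-06), with an interaction of -0.74 ± 0.10, adjusted p = 0.0113. It was higher in KO than WT skin without UVB (0.30 ± 0.07, adjusted p = 0.0460) and lower after it (-0.44 ± 0.07, adjusted p = 0.00994). Leaving out WT UVB library 2, 3 or 4 ended the call, with an adjusted p of 0.0574, 0.0607 and 0.0527 in turn, and so did leaving out KO control library 4, with 0.0935, with values from -0.69 to -0.75.

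Hba-a2, an alpha-globin gene of red cells, had the largest interaction, 6.74 ± 0.74, adjusted p = 0.00255, and it is uncertain. Its reads are shared with the near-identical copy Hba-a1, and how the authors' counting divided them is not stated in the labels. WT control libraries held 220, 319, 189 and 341 Hba-a2 reads and WT UVB libraries 1, 1, 3 and 2. KO control libraries held 401, 430, 268 and 382 reads and KO UVB libraries 250, 471, 168 and 168. Hba-a2 took 19.2%, 20%, 17% and 18.4% of the reads of both copies in the WT control libraries and 0.116%, 0.177%, 0.203% and 0.23% in the WT UVB libraries. The share was 43.3%, 45.3%, 41.3% and 43.1% in KO control and 42.9%, 41.6%, 17.3% and 19.7% in KO UVB libraries. The share thus fell into 3 levels, at most 0.23% in the WT UVB libraries, 17% to 20% in the WT control libraries and KO UVB libraries 3 and 4, and at least 41.3% elsewhere. With the reads of both copies summed, the interaction was 0.66 ± 0.42 (adjusted p = 0.53), and the fit then called 3 genes. The summed level ranged from 26.8 to 98.7 CPM over the 16 libraries.

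**Figure D2:**
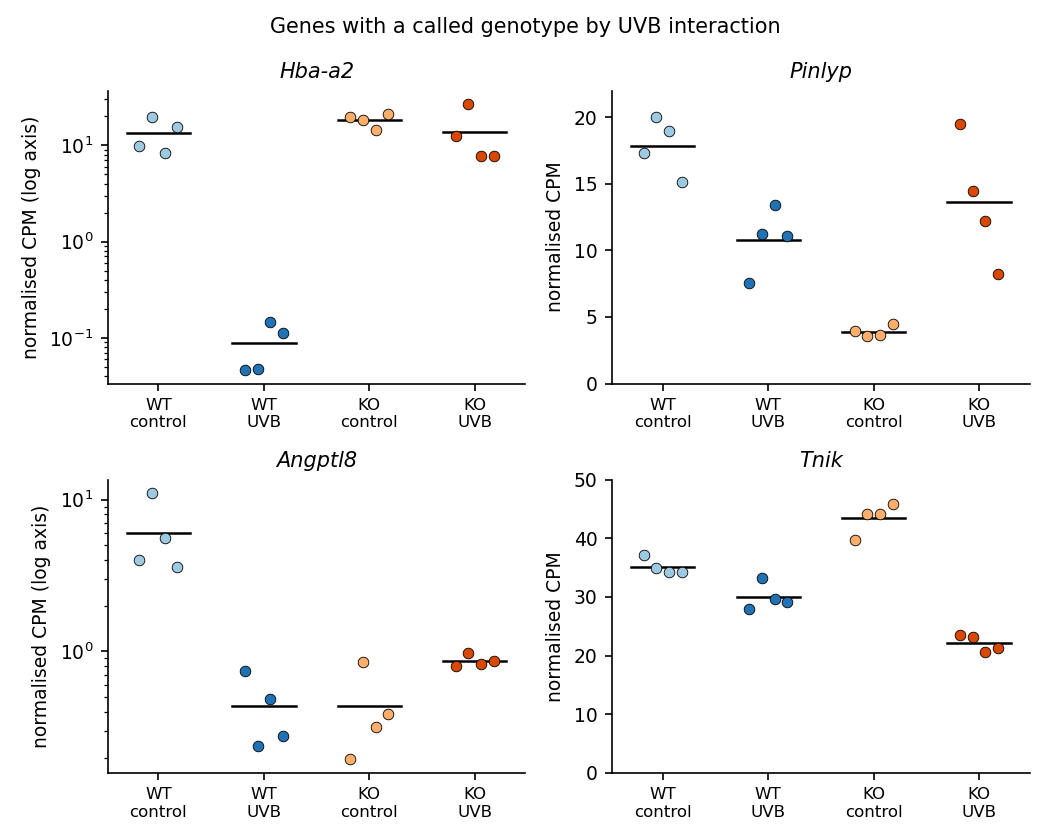
Normalised CPM of the 4 genes with a called interaction, by group; points are libraries (n = 4 per group), lines are group means, and the axes of Hba-a2 and Angptl8 are logarithmic. Pinlyp falls with UVB in WT and rises in KO skin, Tnik falls more in KO skin, Angptl8 is high in WT control libraries, and Hba-a2 is near 0.1 CPM in WT UVB libraries.

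The uncalled genes closest to the threshold included 3, Fkbp5, Hsph1 and Banp, that fell with UVB in WT and rose in KO skin. Fkbp5, a co-chaperone of steroid receptors that glucocorticoids induce, was at 277, 311, 177 and 298 CPM in WT control and 149, 167, 151 and 135 CPM in WT UVB libraries. It was at 99.3, 93.9, 84.2 and 65.4 CPM in KO control and 201, 131, 118 and 135 CPM in KO UVB libraries. Control groups did not overlap and UVB groups did. Fkbp5 fell in WT (-0.82 ± 0.19, adjusted p = 0.00696) and rose in KO skin (0.77 ± 0.19, adjusted p = 0.00605), with an interaction of 1.59 ± 0.27, adjusted p = 0.0576, and DESeq2 and voom called the interaction (adjusted p = 3.64e-05 and 0.00753). Positive values that missed the test also included Itpk1, an inositol phosphate kinase (0.87 ± 0.15, adjusted p = 0.0733), Hsph1, a heat shock protein of the Hsp110 family (0.93 ± 0.17, adjusted p = 0.0824), and Banp, a nuclear matrix-associated DNA-binding protein (0.93 ± 0.17, adjusted p = 0.0824). Hsph1 changed with UVB by -0.58 in WT (adjusted p = 0.00459) and 0.36 in KO skin (adjusted p = 0.0369), and Banp by -0.45 (adjusted p = 0.0182) and 0.49 (adjusted p = 0.00692). Negative values that missed it included the transcription factors Sox6 (-0.96 ± 0.16, adjusted p = 0.0576) and Klf11 (-0.92 ± 0.15, adjusted p = 0.0576). The potassium channel subunit Abcc9 gave -0.76 ± 0.14, adjusted p = 0.0733, acetylcholinesterase Ache -1.01 ± 0.19, adjusted p = 0.0824 and the secreted ribonuclease Rnase1 -1.23 ± 0.23, adjusted p = 0.0824. Rnase1 rose with UVB in WT skin (0.85 ± 0.16, adjusted p = 0.00217). Sox6, Klf11, Abcc9 and Ache fell with UVB in KO skin, with log2 fold changes of -0.95, -1.24, -0.85 and -1.22, and did not pass the test in WT skin.

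Further genes at an adjusted p under 0.1 were chosen after their values were seen. Vsig4, a complement receptor of resident macrophages, was at 2.10 to 4.22 CPM in WT control, 0.996 to 4.36 in WT UVB, 1.06 to 2.88 in KO control and 7.20 to 11.1 in KO UVB libraries. The KO UVB libraries lay above all others, and the interaction was 2.64 ± 0.55, adjusted p = 0.0920. Wfdc17, a small secreted protein of activated macrophages, gave 1.40 ± 0.30, adjusted p = 0.0942, and Ranbp1, a cofactor of nuclear transport by Ran, gave 0.73 ± 0.15, adjusted p = 0.0869. Negative values came from Tead1, the transcription factor partner of YAP (-0.60 ± 0.12, adjusted p = 0.0824), and Synm, an intermediate filament protein of muscle (-0.83 ± 0.17, adjusted p = 0.0869). Tead1 ranged from 169 to 193 CPM in KO control to 92.3 to 111 CPM in KO UVB libraries, with WT control at 133 to 164 and WT UVB at 121 to 132.

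The deleted receptor genes served as a check of the labels. Transcripts of Tnfrsf1a, the receptor carried by most cells, were at 146, 148, 133 and 145 CPM in WT control libraries and 151, 153, 162 and 140.0 CPM in WT UVB libraries, against 82.2, 93.9, 84.6 and 82.9 in KO control and 96.9, 89.3, 105 and 92.04 in KO UVB libraries. Tnfrsf1b was at 44.4 to 69.6 and 33.6 to 51.7 CPM in the WT groups and at 16.4 to 24.9 and 15.6 to 27.9 CPM in the KO groups. All KO libraries lay below all WT libraries for both genes, and reads of both remained in KO skin. Neither had a called interaction (Tnfrsf1a 0.08 ± 0.10, adjusted p = 0.794, Tnfrsf1b 0.45 ± 0.29, adjusted p = 0.54).

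No gene in the lists of TNF superfamily, receptor adaptors or NF-kB targets passed edgeR's test of the interaction, which 0.0228% of all genes passed. At that share, the lack of a call in lists of this size says little about them. Of 40 tested ligands and receptors of the TNF superfamily, 3 had a positive and 3 a negative interaction at an unadjusted p under 0.05, where 6.49% and 6.27% of all genes did, and the list median was 0.12. The lowest values came from Ngfr, the low-affinity neurotrophin receptor (-0.91 ± 0.23, adjusted p = 0.158), which DESeq2 and voom called (adjusted p = 0.0274 and 0.0277), and Edar, the ectodysplasin receptor of hair placodes (-1.17 ± 0.39, adjusted p = 0.242). Of 34 adaptors and death effectors, 2 were positive and 2 negative at that level with a median of 0.06, among them Ripk1, the kinase that sorts TNF receptor 1 signals towards survival or death (0.28 ± 0.11, adjusted p = 0.309). NF-kB subunits and feedback targets gave 5 positive and 0 negative of 32 at that level. Their median was 0.31, which was -0.03 without KO UVB libraries 3 and 4 and 0.02 without library 3. Lcn2 was the member that DESeq2 and voom called (adjusted p = 0.0172 and 0.0266). Within that list Vcam1, the endothelial adhesion molecule for leukocytes, gave 1.18 ± 0.44, adjusted p = 0.288, and Ccl20, the chemokine that draws Langerhans cell precursors, gave 1.54 ± 0.59, adjusted p = 0.29.

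The cytokines that act beside TNF had wide errors. Tnf itself was at 1.79 to 2.46 CPM in WT control, 0.778 to 1.89 in WT UVB, 0.826 to 1.65 in KO control and 0.498 to 3.65 in KO UVB libraries, and its interaction was 0.97 ± 0.65, adjusted p = 0.553. Il1b, an early inflammatory cytokine of myeloid cells, was at 3.38, 5.88, 78.2 and 8.79 CPM in the KO UVB libraries against 2.94 to 8.11 in WT UVB. One library thus set its KO UVB mean: its interaction was 1.49 ± 1.14, adjusted p = 0.61 and -0.52 without KO UVB library 3 (adjusted p = 0.785). Il6, another inflammatory cytokine, behaved alike, with 7.16 CPM in KO UVB library 3 and 0.498 to 0.856 in the other 3, and its interaction went from 0.80 ± 1.77, adjusted p = 0.881 to -1.06 without it. Over 16 tested genes of the IL-1 and IL-36 family no interaction reached an unadjusted p under 0.05, where 12.8% of all genes did, and the median was 0.05.

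Genes of protein folding in the endoplasmic reticulum rose with UVB in KO skin and none of them did in WT skin. When unfolded proteins accumulate there, the sensors IRE1, PERK and ATF6 induce chaperones and foldases, a program called the unfolded protein response. Of 20 tested genes of this list, 15 rose with UVB in KO skin and 0 in WT skin, where 17.2% and 10.2% of all genes rose. No interaction of the list passed the adjusted threshold in edgeR, which 0.0228% of all genes passed. DESeq2 called 7 and voom 8, all positive, where 0.61% and 1.22% of all genes were called positive. At an unadjusted p under 0.05, 11 of the 20 were positive and 0 negative, against 6.49% and 6.27% of all genes. The list median was 0.44 against 0.02 over all genes, with UVB medians of 0.04 in WT and 0.49 in KO skin. The median difference of KO from WT skin was -0.13 without UVB and 0.30 after it, so part of the interaction lay in the control groups. The summed level of the list was 2255 to 2611 CPM in WT control and 2043 to 2506 CPM in KO control libraries. Under 29 alternative fits, which left out each library in turn and KO UVB libraries 3 and 4 together among others, 10 to 12 members were positive at that level and 0 negative, and the median ran from 0.34 to 0.56. KO UVB library 3, with the most neutrophil and macrophage transcripts, had the highest summed level of the list, 3822 CPM against 2859 to 2996 in the other KO UVB libraries. Without libraries 3 and 4 the median was 0.39 with 10 positive members.

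Members of the list are named here after their values were seen. Hspa5, the chaperone BiP that binds the sensors, was at 393, 408, 454 and 359 CPM in WT control and 355, 389.7, 446 and 435 CPM in WT UVB libraries. It was at 405, 275, 304 and 304 CPM in KO control and 541, 502, 824 and 483 CPM in KO UVB libraries, where library 3 was highest. All KO UVB libraries lay above all others, and KO control library 1 lay within the WT range. Hspa5 gave 0.01 ± 0.16, adjusted p = 0.973 in WT, rose in KO skin (0.87 ± 0.16, adjusted p = 0.00127) and had an interaction of 0.86 ± 0.23, adjusted p = 0.179, which was 0.65 without KO UVB library 3. Pdia4, a protein disulfide isomerase and the list member with the smallest p, was at 72.3, 58.6, 54.95 and 63.7 CPM in KO control and 85.1, 91.7, 118 and 95.6 CPM in KO UVB libraries, against 63.98 to 73.4 and 61.8 to 70.9 in WT control and WT UVB. Its KO UVB libraries again lay above all others, and its interaction was 0.73 ± 0.14, adjusted p = 0.0826. Calreticulin, encoded by Calr, gave 0.63 ± 0.17, adjusted p = 0.175, and Hsp90b1, the Hsp90 of the endoplasmic reticulum, gave 0.62 ± 0.18, adjusted p = 0.197. Manf, a secreted protein induced by reticulum stress, gave 0.69 ± 0.17, adjusted p = 0.153, Sdf2l1, a partner of the BiP chaperone cycle, 1.09 ± 0.25, adjusted p = 0.113, Creld2, a disulfide isomerase-like protein, 0.59 ± 0.15, adjusted p = 0.167, and Pdia6 0.59 ± 0.21, adjusted p = 0.267. Without KO UVB library 3 these were 0.52 for Calr, 0.49 for Hsp90b1, 0.56 for Manf, 0.92 for Sdf2l1, 0.47 for Creld2 and 0.46 for Pdia6.

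**Figure D3:**
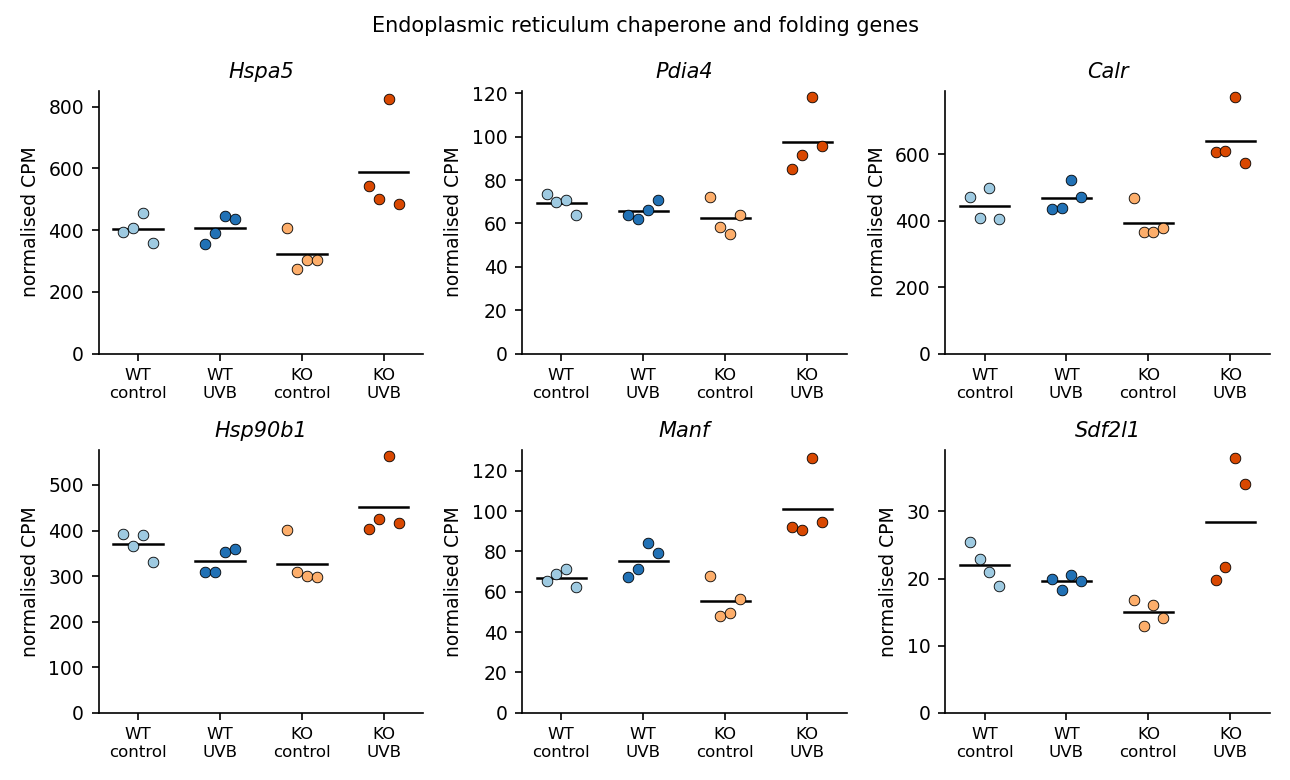
Normalised CPM of 6 endoplasmic reticulum chaperone and folding genes by group; points are libraries (n = 4 per group) and lines are group means. In Hspa5, Pdia4, Calr, Hsp90b1 and Manf the KO UVB libraries are the highest of the 16, whereas for Sdf2l1 they overlap the WT libraries.

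A sequence element was looked for in the promoters of this list, and 5 of 18 held it. The endoplasmic reticulum stress element, made of CCAAT, 9 bases of any kind and CCACG, is bound by NF-Y at its CCAAT part and by ATF6 at its CCACG part, and it was chosen for a search after the values were seen. It was searched on both strands in the 250 bases before each gene's start, in the RefSeq promoter table of GRCm38.p6. It occurred in 37 of 32851 promoters (0.113%). The 18 are the list members with a promoter in the table. These 5 are printed because they are the list members with the element, 5′ to 3′ on the gene's own strand, with the element in capitals and its reverse complement where it lies on the opposite strand.
Hspa5 (chr2:34771840-34772089, plus strand): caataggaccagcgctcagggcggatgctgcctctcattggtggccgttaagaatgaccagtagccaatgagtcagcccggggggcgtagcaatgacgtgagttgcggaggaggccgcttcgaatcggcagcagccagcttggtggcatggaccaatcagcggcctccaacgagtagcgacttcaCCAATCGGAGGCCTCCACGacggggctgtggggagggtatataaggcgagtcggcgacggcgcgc
Hsp90b1 (chr10:86705445-86705694, minus strand): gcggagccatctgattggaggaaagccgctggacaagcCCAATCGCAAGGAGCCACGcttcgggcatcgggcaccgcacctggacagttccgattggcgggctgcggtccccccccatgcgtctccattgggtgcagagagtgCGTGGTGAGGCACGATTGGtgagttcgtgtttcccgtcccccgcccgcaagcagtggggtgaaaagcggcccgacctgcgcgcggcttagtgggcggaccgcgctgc
Pdia6 (chr12:17266339-17266588, plus strand): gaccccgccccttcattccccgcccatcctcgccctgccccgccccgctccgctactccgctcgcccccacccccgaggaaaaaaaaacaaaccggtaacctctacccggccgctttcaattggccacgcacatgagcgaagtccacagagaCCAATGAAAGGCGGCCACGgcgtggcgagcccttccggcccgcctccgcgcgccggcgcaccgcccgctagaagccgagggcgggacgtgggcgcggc
Calr (chr8:84846932-84847181, minus strand): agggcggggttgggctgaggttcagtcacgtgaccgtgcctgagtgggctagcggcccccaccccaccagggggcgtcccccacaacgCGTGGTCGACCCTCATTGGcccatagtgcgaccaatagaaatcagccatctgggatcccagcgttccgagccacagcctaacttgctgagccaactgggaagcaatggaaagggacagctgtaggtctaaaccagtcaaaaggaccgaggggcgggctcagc
Creld2 (chr15:88819396-88819645, plus strand): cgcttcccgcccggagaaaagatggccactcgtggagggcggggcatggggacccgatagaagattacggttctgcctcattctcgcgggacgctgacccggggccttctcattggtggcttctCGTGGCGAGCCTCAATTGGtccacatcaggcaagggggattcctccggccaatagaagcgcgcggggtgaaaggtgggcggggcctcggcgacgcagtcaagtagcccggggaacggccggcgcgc
Hspa5 and Pdia6 carried it on the gene's strand, beginning 65 and 98 bases before the start, Calr and Creld2 on the opposite strand, and Hsp90b1 once on each. Over all genes, 20 tested ones held the element, the 5 above among them. The 5 list members, which were chosen with their values known, were all positive at an unadjusted p under 0.05. Of the other 15 genes 4 (Canx, Dnajc3, Ptgdr2 and Xlr3b) were positive and 0 negative at that level, against 6.49% and 6.27% of all genes. The median of the 15 was 0.25. Since the element was chosen with the values known, these 15 genes are no separate test of the list. A match of letters is a description, and binding was not measured. Of the other motifs searched, the kappaB letters (GGGA, 2 bases of any kind, then TTCC) were in 397 promoters (1.21%) and the AP-1 letters TGANTCA in 2217 (6.75%). Neither was found in the 250 bases of Hba-a2, Pinlyp or Angptl8. Of the 18 list members with a promoter, 3 held the AP-1 letters (Hspa5, Ddit3 and Sel1l) and 0 the kappaB letters. Tested genes with the kappaB letters had a median interaction of 0.03 (180 genes, 12 positive and 8 negative at that level), and those with the AP-1 letters 0.01 (797 genes, 51 and 43).

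Cytosolic chaperones and ribosome assembly genes had positive values as well. Of 18 heat shock chaperones, 7 were positive and 0 negative at an unadjusted p under 0.05, against 6.49% and 6.27% of all genes, and the median was 0.22. Their median difference of KO from WT skin was -0.11 without UVB and 0.19 after it. In edgeR none of the 18 passed the adjusted threshold, which 0.0228% of all genes passed. DESeq2 called 5 (Dnaja1, Hsp90aa1, Hspa5, Hspa8 and Hsph1) and voom all of these but Dnaja1, each positive. Over all genes 0.61% and 1.22% were called positive by these tools. Hspa5 also belongs to the unfolded protein response list. Hsp90aa1, the inducible cytosolic Hsp90, was at 118, 90.3, 103 and 98.8 CPM in KO control and 141, 145, 179 and 122 CPM in KO UVB libraries, and at 117 to 135 and 92.6 to 118 in WT control and WT UVB. Its KO UVB range began inside the WT control range, and the interaction was 0.74 ± 0.16, adjusted p = 0.109. Hspa8, the constitutive Hsp70, gave 0.59 ± 0.17, adjusted p = 0.194, and Dnaja1, an Hsp40 co-chaperone, gave 0.57 ± 0.14, adjusted p = 0.13. All 22 tested ribosome biogenesis genes had a positive interaction, where 52.6% of all genes did, and 10 reached an unadjusted p under 0.05. The list median was 0.42, and 18 of the 22 rose with UVB in KO skin and 0 in WT skin, where 17.2% and 10.2% of all genes rose. The median difference of KO from WT skin for the 22 was -0.11 without UVB and 0.29 after it. Fbl, the methyltransferase fibrillarin of the nucleolus, was at 29.4, 26.7, 29.02 and 28.3 CPM in KO control and 49.9, 42.6, 54.5 and 35.9 CPM in KO UVB libraries, with 31.003 to 35.002 and 30.7 to 38.97 in WT control and WT UVB. Library 4 was the lowest of the KO UVB libraries and lay within the WT UVB range, and the interaction was 0.63 ± 0.16, adjusted p = 0.153. Npm1, the nucleolar chaperone nucleophosmin, gave 0.47 ± 0.16, adjusted p = 0.243. Without KO UVB library 4, 20 of the 22 ribosome biogenesis genes were positive at an unadjusted p under 0.05, and the median was 0.53. In that fit 2827 of all genes reached this level in either direction, against 2238 with all libraries. Over 29 alternative fits 3 to 20 of the 22 were positive and 0 negative at that level. Their median ran from 0.28, without KO UVB library 3, to 0.53.

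Leukocyte genes had larger but less even values. Of 24 tested monocyte and macrophage genes, 11 were positive and 0 negative at an unadjusted p under 0.05, where 6.49% and 6.27% of all genes were. These 24 genes had a median interaction of 0.88, from UVB medians of -0.37 in WT and 0.48 in KO skin. Their summed level was 2708 to 4604 CPM in WT control, 2128 to 3163 in WT UVB, 2443 to 4219.7 in KO control and 2563 to 5654 in KO UVB libraries, so that the groups overlapped. In bulk skin a larger number of cells of a type and more RNA per cell cannot be told apart. The count of 11 moved with single libraries. It was 4 without KO UVB library 3, 18 without KO UVB library 1 and 6 without WT control library 2. It was 7 without WT control library 1, WT UVB library 2, KO control library 3 or KO control library 4. The count over all genes at that level, in either direction, moved too. It was 2238 with all libraries, 1791 without KO UVB library 3, 2871 without KO UVB library 1 and 1779 to 2001 in the other fits named here. Leaving out KO UVB libraries 3 and 4 left 2 positive and 2 negative members and a median of 0.45, with 2568 of all genes at that level. Fcgr3, an activating Fc receptor, was at 86.3, 103, 78.7 and 79.5 CPM in WT control and 60.3, 47.2, 58.7 and 54.3 CPM in WT UVB libraries. It was at 115, 93.7, 74.2 and 75.6 CPM in KO control and 66.5, 136, 109 and 156 CPM in KO UVB libraries, and all KO UVB libraries lay above all WT UVB libraries. Fcgr3 fell with UVB in WT skin (-0.66 ± 0.21, adjusted p = 0.0381), gave 0.38 ± 0.21, adjusted p = 0.168 in KO skin and had an interaction of 1.04 ± 0.29, adjusted p = 0.195. Lyve1, a hyaluronan receptor of lymphatic vessels and perivascular macrophages, gave 1.49 ± 0.37, adjusted p = 0.149, the mannose receptor Mrc1 0.88 ± 0.33, adjusted p = 0.29, the lysosomal marker Cd68 1.08 ± 0.41, adjusted p = 0.292, the complement component C1qa 0.996 ± 0.39, adjusted p = 0.298 and the F4/80 gene Adgre1 0.81 ± 0.40, adjusted p = 0.407.

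The neutrophil list had the highest median of those examined, 1.60 over 14 tested genes. At an unadjusted p under 0.05, 6 were positive and 0 negative, where 6.49% and 6.27% of all genes were. UVB medians were -0.12 in WT and 2.12 in KO skin, and 12 of the 14 rose with UVB in KO skin against 3 in WT skin, where 17.2% and 10.2% of all genes rose. The neutrophil genes Ly6g, Elane, Ngp, Ltf, Mrgpra2a and Trem1 had 12, 49, 18, 51, 2 and 330 reads over the 16 libraries and were not tested. The tested genes summed to 74.8 to 119 CPM in WT UVB libraries, 107 to 144 in KO UVB libraries 1, 2 and 4, and 507 in KO UVB library 3. S100a8, a calcium-binding alarmin of neutrophils and stressed keratinocytes, was at 6.52, 9.58, 112 and 14.7 CPM in KO UVB and 4.38, 1.33, 12.02 and 3.11 CPM in WT UVB libraries. Its interaction of 1.71 ± 1.30, adjusted p = 0.61 became -0.10 without KO UVB library 3. Lcn2, an iron-sequestering protein that keratinocytes also make, was at 17.6, 17.3, 20.3 and 6.24 CPM in KO UVB and 4.75 to 7.12 CPM in WT UVB libraries and gave 1.70 ± 0.44, adjusted p = 0.164. Csf3r, the receptor of granulocyte colony-stimulating factor, gave 1.44 ± 0.70, adjusted p = 0.404 (0.54 without KO UVB library 3), and the cathelicidin gene Camp 2.35 ± 0.76, adjusted p = 0.234. Without KO UVB libraries 3 and 4 the list median was 0.63. Among chemokines 7 of 33 were positive and 0 negative at that level, with a median of 0.72, which was -0.15 without KO UVB libraries 3 and 4. Ccl6, a macrophage chemokine, was at 191, 85.7, 113 and 102 CPM in WT UVB and 194, 472, 539.5 and 329 CPM in KO UVB libraries, where all KO UVB libraries were above all WT UVB libraries, and gave 2.02 ± 0.48, adjusted p = 0.138. Cxcl12, the stromal ligand of Cxcr4, gave 0.49 ± 0.16, adjusted p = 0.233. Without KO UVB libraries 3 and 4 the median of T and NK cell genes went from 0.42 (2 positive of 26 at that level) to -0.42, and that of Langerhans, dendritic and MHC class II genes from 0.46 (2 of 20) to -0.36, while mast cell genes stayed positive, at 0.40 and 0.15. Type I interferon response genes went from a median of 0.24, with 0 of 28 at that level, to -0.80, with 0 positive and 11 negative. Over all genes the count at that level, in either direction, went from 2238 to 2568 without these libraries. Cd4, the co-receptor of helper T cells, gave 0.90 ± 0.37, adjusted p = 0.32.

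**Figure D4:**
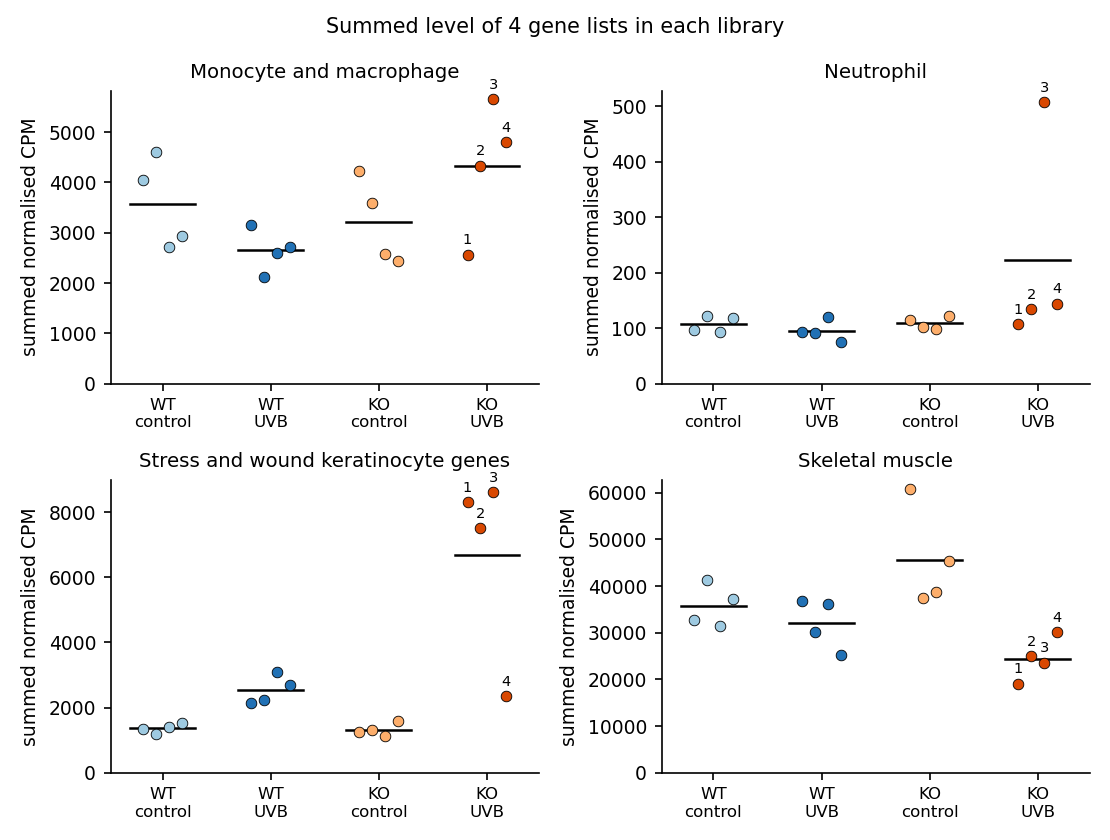
Summed normalised CPM of the tested members of 4 gene lists in each library, by group (n = 4 per group, lines are means, digits number the KO UVB libraries). KO UVB library 3 is highest for macrophage and neutrophil genes, library 4 stands at the WT UVB level for stress keratinocyte genes, and the KO UVB libraries overlap only the WT UVB libraries for skeletal muscle genes.

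Keratinocyte stress genes stood highest in 3 of the 4 KO UVB libraries. Krt6a, which wounded or overgrowing epidermis makes, was at 95.5, 108, 126 and 138 CPM in WT control and 208, 189.5, 231 and 245 CPM in WT UVB libraries. It was at 135, 111, 70.2 and 132 CPM in KO control and 1624, 1598, 1775 and 237 CPM in KO UVB libraries. KO UVB library 4 fell within the range of WT UVB and the other 3 lay above all other libraries. Krt6a was not called for the interaction (2.64 ± 0.58, adjusted p = 0.109) with all libraries and was called without KO UVB library 4 (2.99, adjusted p = 0.000103). It rose in KO skin (3.55 ± 0.45, adjusted p = 7.73e-05), and in WT skin it gave 0.90 ± 0.41, adjusted p = 0.137. Gjb2, which encodes the gap junction protein connexin 26, was at 84.6, 70.1, 124 and 11.7 CPM in KO UVB and 14.3, 18.7, 36.2 and 22.4 CPM in WT UVB libraries, again with library 4 at the bottom, and gave 3.37 ± 0.70, adjusted p = 0.0942 (3.73, adjusted p = 0.00292 without library 4). Tnc, the wound matrix protein tenascin C, gave 2.54 ± 0.85, adjusted p = 0.243 (2.92, adjusted p = 0.0233 without library 4), and Slpi, a leukocyte protease inhibitor of inflamed epidermis, gave 2.03 ± 0.60, adjusted p = 0.21 (2.33, adjusted p = 0.0239 without library 4). Of the 34 tested stress and wound genes, 6 were positive and 0 negative at an unadjusted p under 0.05, where 6.49% and 6.27% of all genes were. Without KO UVB library 4, 10 were positive, and 2827 of all genes reached that level in either direction, against 2238 with all libraries. The list median was 0.23, with UVB medians of 1.16 in WT and 2.41 in KO skin, and it was 0.05 without KO UVB library 1. Antimicrobial and acute-phase genes gave 5 positive and 0 negative of 18 at that level with a median of 0.79. Of the 18, 15 rose in KO against 6 in WT skin, where 17.2% and 10.2% of all genes rose.

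Antioxidant genes controlled by NRF2, a sensor of electrophiles, gave 7 positive and 1 negative of 20 at an unadjusted p under 0.05, against 6.49% and 6.27% of all genes, and a median of 0.24. Gpx2, a glutathione peroxidase, was at 2.64, 3.35, 3.67 and 2.28 CPM in WT control libraries and at 1.48, 1.14, 1.31 and 1.28 CPM in WT UVB libraries. In KO skin it was at 0.729, 0.763, 1.38 and 1.77 CPM without UVB and at 3.78, 3.25, 4.34 and 0.683 CPM after it, lowest in library 4, with an interaction of 2.58 ± 0.59, adjusted p = 0.116 (2.92, adjusted p = 0.00408 without library 4). Gsta4, a glutathione transferase for lipid aldehydes, rose in KO skin (2.22 ± 0.31, adjusted p = 0.000147), gave 0.75 ± 0.30, adjusted p = 0.0972 in WT skin and had an interaction of 1.47 ± 0.42, adjusted p = 0.203. Gsta3, another glutathione transferase, was lower in KO control skin (-2.07 ± 0.32, adjusted p = 0.00345) and gave 1.52 ± 0.45, adjusted p = 0.206.

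Epidermal differentiation and barrier enzymes had mostly negative values. Of 39 tested, 7 had a positive value, against 52.6% of all genes, and the median was -0.27, or 0.00 without KO UVB libraries 3 and 4. At an unadjusted p under 0.05, 2 were positive and 5 negative, where 6.49% and 6.27% of all genes were. These genes responded strongly to UVB in each genotype: 32 rose in WT and 28 in KO skin, against 10.2% and 17.2% of all genes, with medians of 1.06 and 0.88. Krt2, a keratin of the upper spinous layer, was at 0.983, 0.248, 2.10 and 0.941 CPM in WT control and 64.5, 45.01, 46.3 and 29.5 CPM in WT UVB libraries. It was at 1.12, 0.593, 0.799 and 1.39 CPM in KO control and 1.24, 8.44, 3.65 and 3.69 CPM in KO UVB libraries. The WT UVB libraries lay above all others. Krt2 rose in WT (5.38 ± 0.53, adjusted p = 1.45e-05) and in KO skin (2.13 ± 0.54, adjusted p = 0.00778), was lower in KO than WT skin after UVB (-3.46 ± 0.46, adjusted p = 0.00121) and had an interaction of -3.25 ± 0.76, adjusted p = 0.125. Flg2, a filaggrin relative of the cornified layer, belongs to another list, the cornified envelope precursors, and had its lowest interaction. Of the 38 tested in that list, 3 were positive and 1 negative at that level, and 34 rose and 2 fell with UVB in KO skin. Flg2 fell with UVB in KO skin (-0.84 ± 0.19, adjusted p = 0.00349), gave 0.04 ± 0.19, adjusted p = 0.896 in WT skin and had an interaction of -0.88 ± 0.26, adjusted p = 0.211. In contrast, Padi1, which citrullinates keratins, rose in KO skin (2.16 ± 0.47, adjusted p = 0.00314), gave -0.89 ± 0.42, adjusted p = 0.15 in WT skin and had an interaction of 3.06 ± 0.63, adjusted p = 0.0894.

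Skeletal muscle transcripts, which come from the thin muscle sheet under the skin, made up the most negative list. Of 29 tested genes, 13 were negative and 0 positive at an unadjusted p under 0.05, where 6.27% and 6.49% of all genes were. The list median was -0.69. UVB medians were -0.16 in WT and -0.89 in KO skin, and 21 of the 29 fell in KO against 4 in WT skin, where 15.1% and 8.6% of all genes fell. The summed level was 31506 to 41371 CPM in WT control, 25269 to 36826 in WT UVB, 37469 to 60676 in KO control and 19033 to 30087 in KO UVB libraries. Ttn, the giant sarcomere protein titin, was at 2539, 2633, 2385 and 2286 CPM in WT control and 2576, 2923, 1774 and 1979 CPM in WT UVB libraries. It was at 3675, 3089.8, 3541 and 2804 CPM in KO control and 1295, 1573, 1453 and 1564 CPM in KO UVB libraries. KO UVB libraries were the lowest, without overlap with any other group. KO control libraries all lay above the WT control libraries, and the WT UVB range overlapped both. Its interaction was -1.07 ± 0.22, adjusted p = 0.0869, and that of Neb, the thin filament protein nebulin, -0.97 ± 0.19, adjusted p = 0.0826. Ryr1, the calcium release channel, gave -0.65 ± 0.20, adjusted p = 0.218, and Acta1, the skeletal alpha actin, -0.87 ± 0.30, adjusted p = 0.257. The count of 13 was 8 without KO control library 1, which had 60676 summed CPM, 20 without KO control library 2 and 21 without KO UVB library 4. Over all genes the count at that level, in either direction, was 2774, 2161 and 2827 in these fits in turn, against 2238 with all libraries. The labels do not say how deep each skin piece was cut. With the muscle score as a covariate, edgeR called 251 interactions, 74 positive and 177 negative. This score was -1.37 to -0.189 in KO UVB and -0.0888 to 1.87 in KO control libraries, without overlap. It and the UVB effect in KO skin thus cannot be fully told apart.

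Dermal and appendage lists gave smaller values. Of 30 fibroblast and matrix genes 2 were positive and 3 negative at an unadjusted p under 0.05, where 6.49% and 6.27% of all genes were. The list median was -0.07. Col1a1 and Col1a2, the chains of type I collagen, fell with UVB in KO skin (-0.90 ± 0.24 and -0.99 ± 0.24) and had interactions of -0.91 ± 0.33, adjusted p = 0.275 and -0.92 ± 0.34, adjusted p = 0.275. Their levels in WT control libraries spanned 8241 to 20318 and 8979 to 22320.4 CPM. Hair follicle bulge stem cell genes gave 4 negative and 0 positive of 22 at that level and a median of -0.24. Krt15, a keratin of bulge and basal cells, was at 858 to 1197 CPM in WT UVB and 513 to 640.1 CPM in KO UVB libraries, which did not overlap, and fell in WT (-0.65 ± 0.20, adjusted p = 0.0340) and KO skin (-1.40 ± 0.20, adjusted p = 0.000200), with an interaction of -0.75 ± 0.28, adjusted p = 0.284. Lgr6, a receptor of upper follicle stem cells, gave -0.89 ± 0.32, adjusted p = 0.271. Wnt ligands, receptors and regulators gave 1 positive and 4 negative of 42 at that level and a median of -0.16. The ligand Wnt3 rose in WT skin (0.75 ± 0.22, adjusted p = 0.0254), gave -0.48 ± 0.22, adjusted p = 0.0998 in KO skin and had an interaction of -1.23 ± 0.31, adjusted p = 0.153. In the sebaceous list 3 of 24 were negative and 0 positive at that level. A positive value was found in 12 of the 24, where 52.6% of all genes had one, and the list median was 0.01. Its member Scd3, a stearoyl-CoA desaturase of sebocytes, was at 443, 549, 374 and 590.5 CPM in WT UVB and 164, 99.9, 252 and 220.2 CPM in KO UVB libraries, without overlap, and gave -1.51 ± 0.39, adjusted p = 0.164, and the fatty acid elongase Elovl5 gave -0.87 ± 0.27, adjusted p = 0.224.

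Transcripts of growing hair fell with UVB in both genotypes from unequal starting points. Of 42 tested hair shaft and root sheath genes, 40 fell with UVB in WT and 36 in KO skin (8.6% and 15.1% of all genes did). In control skin 34 were lower in KO than WT (1.28% of all genes were). After UVB 0 were called between genotypes, where 0.856% of all genes were, yet the list's median difference of KO from WT skin was -1.91. Over all genes that median was 0.01. The median interaction was 0.88, with 9 positive and 0 negative at an unadjusted p under 0.05, where 6.49% and 6.27% of all genes were. Krt72, a keratin of the inner root sheath, was at 57.9, 77.6, 29.9 and 33.3 CPM in WT control and 5.59, 4.96, 5.48 and 2.22 CPM in KO control libraries, and 2 of the 8 UVB libraries held no read of it. WT UVB library 2 held 4.84 CPM and the other UVB libraries 0 to 0.199. Its interaction was -0.56 ± 1.83, adjusted p = 0.92, and 3.95 (adjusted p = 0.442) without that library, without which 24 of the 42 list members were positive at that level and the median was 2.79. Over all genes 1779 reached that level in either direction without WT UVB library 2, against 2238 with all libraries. Crym, a marker of hair matrix and shaft, fell in WT (-2.90 ± 0.26, adjusted p = 6.63e-06) and KO skin (-1.77 ± 0.27, adjusted p = 0.000308) and gave 1.13 ± 0.37, adjusted p = 0.24. With the hair score of each library as a covariate, edgeR called 0 interactions, and 1601 genes had an unadjusted p under 0.05. This score separates WT control from the other groups, so it and the groups cannot be told apart.

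In edgeR no melanocyte gene, which the series title concerns, had a called interaction, where 0.0228% of all genes did. At that share, the lack of a call among so few genes says little about them. Dct, an enzyme of pigment synthesis and an early melanoblast marker, was at 17.6, 15.4, 36.4 and 13.1 CPM in WT control and 24.96, 24.9, 26.6 and 25.8 CPM in WT UVB libraries. It was at 17.4, 14.03, 10.1 and 9.59 CPM in KO control and 14.1, 11.9, 11.3 and 10.3 CPM in KO UVB libraries, so that the UVB groups did not overlap while the control groups did. Its interaction was -0.41 ± 0.37, adjusted p = 0.678. Pmel, the fibril protein of melanosomes, was lower in KO than WT skin after UVB (-1.46 ± 0.28, adjusted p = 0.0234), gave -1.11 ± 0.28, adjusted p = 0.0575 without UVB and had an interaction of -0.35 ± 0.39, adjusted p = 0.744. Tyr, the rate-limiting enzyme of melanin synthesis, gave 0.50 ± 0.64, adjusted p = 0.781, its relative Tyrp1 0.28 ± 0.47, adjusted p = 0.838 and the melanosome protein Mlana -1.03 ± 0.42, adjusted p = 0.326. Mitf, the master transcription factor of the lineage, fell with UVB in WT (-0.49 ± 0.12, adjusted p = 0.00871) and KO skin (-0.32 ± 0.12, adjusted p = 0.0455) and had an interaction of 0.17 ± 0.17, adjusted p = 0.702. Sox10, a neural crest factor that glia also express, fell in WT (-0.67 ± 0.15, adjusted p = 0.00533) and KO skin (-0.50 ± 0.15, adjusted p = 0.0165), with 0.16 ± 0.21, adjusted p = 0.774 for the interaction. The receptor Kit, which melanoblasts need for survival and migration, gave 0.22 ± 0.16, adjusted p = 0.587, and its ligand Kitl gave 0.12 ± 0.14, adjusted p = 0.767. At an unadjusted p under 0.05, 6.49% of all genes were positive and 6.27% negative. Of 14 pigment synthesis genes 2 were positive and 1 negative at that level, and of 19 lineage regulators and receptors 1 and 1, with medians of 0.21 and 0.00. The latter were Ednrb, the endothelin receptor of melanoblasts and also of endothelium and other dermal cells (1.11 ± 0.38, adjusted p = 0.262), and Mef2c, which muscle also expresses (-0.56 ± 0.14, adjusted p = 0.142). DESeq2 and voom called Mef2c (adjusted p = 0.0108 and 0.0221), and voom called Ednrb (adjusted p = 0.0499).

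Niche ligands that act on melanocyte stem cells gave 5 positive and 2 negative of 27 at an unadjusted p under 0.05, against 6.49% and 6.27% of all genes, and a median of -0.11. Tgfb2, a transforming growth factor that holds melanocyte stem cells in quiescence, was at 35.04, 27.96, 34.5 and 27.1 CPM in WT control and 35.9, 46.4, 37.1 and 45.998 CPM in WT UVB libraries. It was at 36.5, 50.9, 56.1 and 71.7 CPM in KO control and 24.04, 35.1, 35.96 and 38.4 CPM in KO UVB libraries. All KO control libraries lay above all WT control libraries, and the UVB groups overlapped. Tgfb2 was higher in KO than WT control skin (0.79 ± 0.18, adjusted p = 0.0404), fell with UVB in KO skin (-0.69 ± 0.18, adjusted p = 0.0103) and gave 0.41 ± 0.18, adjusted p = 0.135 in WT skin, with an interaction of -1.09 ± 0.26, adjusted p = 0.13. DESeq2 and voom called the Tgfb2 interaction (adjusted p = 0.0104 and 0.0163).

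Many genes of the p53 response and most of mitosis rose with UVB in each genotype. None in these lists had a called interaction in edgeR, where 0.0228% of all genes did. Of 29 p53 target genes, 14 rose and 2 fell in WT and 14 rose and 3 fell in KO skin, where 10.2% and 17.2% of all genes rose and 8.6% and 15.1% fell. Their median interaction was 0.01, with 2 positive and 1 negative at an unadjusted p under 0.05, where 6.49% and 6.27% of all genes were. Cdkn1a, the cell cycle inhibitor p21, was at 138, 144, 159.8 and 168 CPM in WT control and 313, 348, 317 and 311 CPM in WT UVB libraries. KO libraries held 136, 141, 159.8 and 175 CPM without UVB and 323, 272, 277 and 313 CPM after it. Control and UVB libraries were apart in each genotype and the genotypes overlapped within each treatment. Cdkn1a rose in WT (1.08 ± 0.10, adjusted p = 6.9e-06) and KO skin (0.95 ± 0.10, adjusted p = 1.66e-05), with an interaction of -0.13 ± 0.14, adjusted p = 0.737, whose 95% interval ran from -0.42 to 0.16. Of 34 mitosis genes 33 rose in each genotype, and 29 had a positive interaction, but 0 reached an unadjusted p under 0.05 and the median was 0.25. Mki67, a marker of dividing cells, was at 133, 144, 125 and 138 CPM in WT UVB and 193, 161, 137 and 78.4 CPM in KO UVB libraries and gave 0.40 ± 0.35, adjusted p = 0.665. Of 34 DNA replication genes 17 rose in WT and 32 in KO skin, and they gave 31 positive interactions, 1 of them at an unadjusted p under 0.05, and a median of 0.26. Without KO UVB libraries 3 and 4, 11 replication genes were positive at that level. In that fit 2568 of all genes reached it in either direction, against 2238 with all libraries.

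Of 24 immediate early genes, 1 was positive and 2 negative in the interaction at an unadjusted p under 0.05, where 6.49% and 6.27% of all genes were. The list median was -0.17, and 1 member, Fosb, was called between KO and WT control skin, where 1.69% of all genes were. Fosb, an AP-1 subunit induced within minutes of handling or stress, was at 2.06, 2.48, 1.53 and 2.33 CPM in WT control and 10.3, 57.6, 8.84 and 30.6 CPM in KO control libraries, and at 7.52, 1.75, 8.43 and 14.1 CPM in WT UVB and 12.4, 12.2, 13.4 and 25.1 CPM in KO UVB libraries. The KO control libraries were all above the WT control libraries and spread widely among themselves. Fosb was higher in KO control skin (3.68 ± 0.65, adjusted p = 0.00797), rose with UVB in WT skin (1.92 ± 0.64, adjusted p = 0.0488), gave -0.77 ± 0.56, adjusted p = 0.309 in KO skin, and had an interaction of -2.69 ± 0.85, adjusted p = 0.229. Nr4a1, an orphan receptor of the same early wave, gave -1.38 ± 0.41, adjusted p = 0.211. The labels do not say how long passed between death and freezing.

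**Figure D5:**
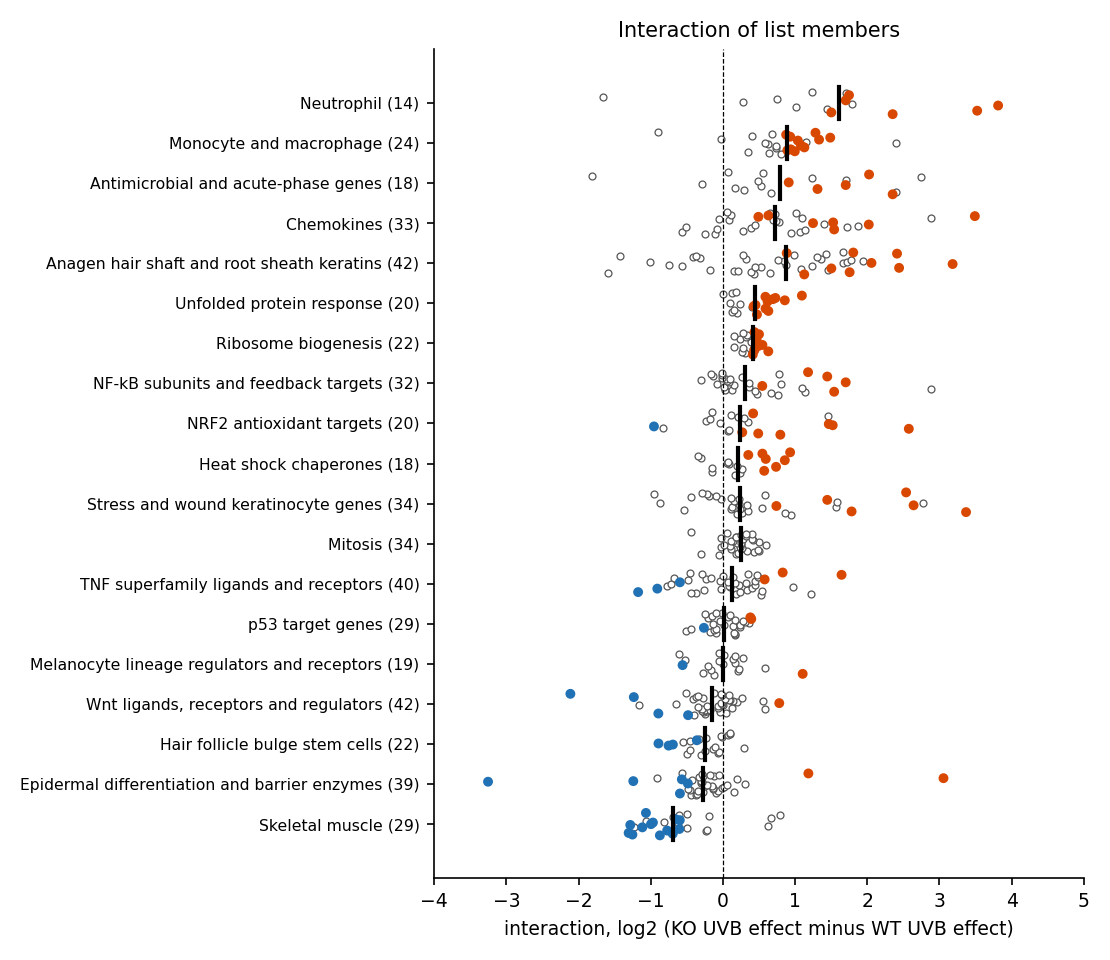
Interaction of each tested member of 19 gene lists (number tested in brackets), on the log2 scale, KO skin minus WT skin; filled points have an unadjusted p under 0.05 (orange positive, blue negative), open points do not, and black bars are list medians. Neutrophil and macrophage lists have the highest medians, the unfolded protein response and ribosome biogenesis lists are narrow and to the right of 0, p53 targets centre on 0, and skeletal muscle lies to the left.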

How the data were processed

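Poly(A)-enriched directional libraries of whole dorsal skin were made from Trizol-extracted total RNA, per the labels' protocols, and STAR was used with GRCm39, per the submitters' processing notes (STAR's version: not given in the sources used here). What the authors deposited are raw read counts per gene and strand for each of 16 libraries. The reverse-strand column held 95.74% of stranded reads and was used. A combined count table without a header has 17 value columns that were not used. Lines for unmapped (10.7 to 19.5% of reads), no-feature (7.25 to 10.2%) and ambiguous reads (1.18 to 1.42%) were left out. Symbols came from a GENCODE annotation of an earlier build and matched 52083 of 55359 gene IDs.

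Counts were fitted with edgeR 4.0.16 in R 4.3.3 as 1 robust quasi-likelihood model of the 4 groups, with TMM scaling and filterByExpr, which kept 17531 genes holding 99.9% of reads in genes. Calls rest on Benjamini-Hochberg adjustment over all of them with a threshold of 0.05. Values after a gene are log2 differences with the standard error implied by the test, adjusted p-values are edgeR's unless another tool is named, and CPM are TMM-normalised. The 95% interval of an interaction uses that standard error and the degrees of freedom of its test. The scripts were tested on simulated data. Exact binomial limits of the Hba-a2 shares and all count-based limits cover counting error only.

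The gene lists (47, with 1026 distinct tested genes) and the members were chosen with earlier results of these data known, and the lists are described by counts and medians with no test of the list. The naming rule took Tnfrsf1a and Tnfrsf1b, up to 12 called genes per direction with a mean count of at least 50 and a symbol that is no predicted, RIKEN or clone name, filled to 6 per direction with the uncalled genes of smallest p, and set genes of pigment (Mitf, Kit, Kitl, Dct, Tyr, Sox10, Tyrp1, Mlana, Pmel), inflammation (Tnf, Il6, Il1b), UVB response (Krt6a, Cdkn1a, Mki67) and hair follicle (Krt72, Tgfb2), 31 genes in all. Every other gene named was chosen after its values were seen. Alternatives were DESeq2 1.42.0, limma 3.58.1 (voom with sample weights), edgeR scaled by DESeq2 size factors or by library totals, a non-robust fit, unstranded counts, all genes with 1 read or more, genes averaging 100 reads or more, a replicate block, hair or muscle scores as covariates, each pair of groups alone, each library left out, and KO UVB libraries 3 and 4 left out. Added after seeing the data were a fit without KO UVB library 4 and WT UVB library 2, the lists under every alternative, and the summed alpha-globin copies. Libraries of 1 group (24 pairs) were compared by chi-square over genes, which gave 14.9 to 158 per degree of freedom, so none was treated as a repeat of another.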

Additional observations from a re-analysis of the deposited data

Results flagged for a closer look

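The interaction itself is a test of whether the UVB effect differs between genotypes, and it passed for Hba-a2 (6.74), Pinlyp (2.53), Angptl8 (4.69) and Tnik (-0.74). The value of Hba-a2 is uncertain. With the reads of Hba-a1 and Hba-a2 summed, edgeR gave an interaction of 0.66 (adjusted p = 0.53). Single libraries far from the other 3 of their group were looked for in 95 named genes, and 29 of 380 groups had one by Dixon's test at its 95% critical value, which chance alone gives in about 1 in 20 groups. KO UVB library 3 and KO control library 1 had 7 each. Many of these genes belong to the same lists and some were named for their values, so the groups are not independent draws.

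KO UVB library 3 held 78.2 CPM of Il1b against 3.38 to 8.79 in the rest of its group, 7.16 CPM of Il6 against 0.498 to 0.856 and 112 CPM of S100a8 against 6.52 to 14.7. It also held 824 CPM of Hspa5 against 483 to 541, 564 CPM of Hsp90b1 against 403 to 426, 239 CPM of Pdia6 against 169 to 180.2 and 127 CPM of Manf against 90.7 to 94.9. KO UVB library 4 held 237 CPM of Krt6a against 1598 to 1775 and 25.1 CPM of Fosb against 12.2 to 13.4. KO UVB library 2 held 473 CPM of Ryr1 against 420.1 to 423, 10.8 CPM of Wnt3 against 21.8 to 24.0003 and 11.1 CPM of Vsig4 against 7.20 to 7.80.

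KO control library 1 held 467 CPM of Calr against 365 to 379, 402 CPM of Hsp90b1 against 297 to 309.9, 167 CPM of Pdia6 against 113 to 114 and 23.4 CPM of Creld2 against 21.6 to 21.8. It further held 76.9 CPM of Mki67 against 50.7 to 53.7, 47.8 CPM of Tnc against 16.3 to 18.1 and 711 CPM of Flg2 against 1210.0 to 1254. KO control library 2 held 71.9 CPM of Dnaja1 against 82.5 to 83.5.

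In WT skin, UVB library 2 held 4.84 CPM of Krt72 against 0 to 0.0923, 30.5 CPM of Mitf against 26.8 to 27.2 and 348 CPM of Cdkn1a against 311 to 317. UVB library 4 held 24.4 CPM of Tyrp1 against 11.1 to 12.9 and 17.8 CPM of Ache against 23.3 to 23.9, and UVB library 3 held 12.3 CPM of Csf3r against 5.74 to 6.78. Control library 3 held 28.7 CPM of Ache against 24.6 to 25.3 and 199.8 CPM of Cxcl12 against 234 to 240.4, and control library 4 held 2.78 CPM of Slpi against 1.27 to 1.48.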

How the results depend on the processing

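The number of called interactions, 4, was 4 with DESeq2 size factors, the non-robust fit or unstranded counts, 5 with library totals and 3 at a mean count of at least 100. It was 212 with DESeq2, 438 with voom, 22 with no filter beyond 1 read, 251 with the muscle score, 67 without KO UVB libraries 3 and 4, 20 without KO UVB library 4 and WT UVB library 2 together, and 0 with the hair score, where 1601 genes had an unadjusted p under 0.05 in edgeR. Leaving out 1 library gave 2 to 110. With the hair score the adjusted p of Hba-a2 was 0.0958, of Tnik 0.0958, of Pinlyp 0.185 and of Angptl8 0.348, and each kept its sign.

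The numbers of the libraries did not pair them: over 24 same-numbered pairs the correlation of deviations ran from -0.403 to 0.219, and 5 of 16 libraries were closest to their own number. A replicate block gave 7 called interactions, 77 differences between KO and WT skin after UVB against 150 without the block, and no other count of calls moved by over 1.5 times.

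Calls of UVB in WT skin (3290) were 5100 with voom and 4363 with these groups alone. They were 0 with the hair score (855 genes at an unadjusted p under 0.05 in edgeR), which cannot be told apart from the groups. With 1 library left out these calls were 2039 to 3707, with 2039 without WT control library 1 and 2147 without WT UVB library 3. Calls of UVB in KO skin (5666) were 177 with the hair score, 3506 with these groups alone and 4280 to 6350 with 1 library left out. KO against WT control calls (297) were 452 with DESeq2, 590 with voom, 93 at a mean count of at least 100, 7 with the hair score and 161 to 362 with 1 library left out (166 without WT control library 1, 161 without 2, 196 without KO control library 3 and 163 without 4). KO against WT calls after UVB (150) were 658 with DESeq2, 1094 with voom, 76 with the hair score, 1062 with the muscle score, 313 without KO UVB libraries 3 and 4, 79 with these groups alone and 59 to 487 with 1 library left out. They were 63, 59 and 62 without WT UVB library 1, 2 or 4, 275 without KO control library 1, and 454, 70, 76 and 487 without KO UVB library 1, 2, 3 or 4. The causes of these shifts were not tested.

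Uncalled interactions changed sign in a few fits. With the hair score Tnfrsf1a gave -0.026 and Mitf -0.011, and with the muscle score Sox10 gave -0.011. Without KO UVB libraries 3 and 4 Tnf gave -0.29, Il1b -0.89, Il6 -0.96 and S100a8 -0.44. With 1 library left out Il1b ran from -0.52 to 1.84, Il6 from -1.06 to 1.27 and S100a8 from -0.10 to 2.52, each lowest without KO UVB library 3. Krt72 gave 1.24 with voom, 4.14 without KO UVB library 4 and WT UVB library 2, and -1.63 to 3.95 with 1 library left out, highest without WT UVB library 2. Genes with few reads, such as Angptl8 and Krt72 in the UVB groups, are limited by depth.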

Other observations

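Some further lists are given by counts at an unadjusted p under 0.05, which 6.49% (positive) and 6.27% (negative) of all genes reached, and by medians, against 0.02 over all genes. Of 18 circadian clock genes 3 had a positive interaction, against 52.6% of all genes, and the median was -0.18, with 1 positive and 2 negative at that level. Of 26 oxidative phosphorylation genes, subunits of the respiratory chain for the most part, 4 were positive and 0 reached it, with a median of -0.11. Endothelial genes gave 4 positive and 0 negative of 20 at that level and a median of 0.22. Basal keratinocyte and hemidesmosome genes gave 0 positive and 1 negative of 18 and a median of -0.12, and precursors of the cornified envelope gave 3 positive and 1 negative of 38 and a median of -0.13. Of the 38 precursors, 28 rose with UVB in WT and 34 in KO skin, where 10.2% and 17.2% of all genes rose.

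Steap1, a membrane protein of the STEAP family chosen after its values were seen, was at 0.894 to 1.18 CPM in WT control, 0.237 to 0.679 in WT UVB, 0.146 to 0.339 in KO control and 0.456 to 2.49 in KO UVB libraries, and its interaction was 3.39 ± 0.71, adjusted p = 0.0910. Of 16 glucocorticoid target genes, to which Fkbp5 belongs, 2 were positive and 1 negative at that level, and the median was 0.01.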
